A study of Mus musculus with 11 samples.

Results

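The 6 genes *Malat1*, *Neat1*, *Firre*, *Miat*, *Snhg11* and *Gas5*, taken by symbol from the 55401 genes of the count table, were followed through 11 libraries of sorted mouse islet cells. *Malat1*, *Neat1* and *Firre* were selected on their read counts, which stood far higher in both beta cell libraries of mouse 4, and *Gas5* was added as a spliced RNA to set beside them, so that contrast is described here and not tested. Of the 6 genes, 5 passed the filter on low counts that kept 17424 genes, and *Miat* did not. The islets came from male, chow-fed C57BL6/J mice aged 10 weeks by the labels (the study's text gives a younger adult age), all carrying RIP-Cre, STOP-tdTomato and Nnat-EGFP together, so the non-beta cells shared the 3 alleles with the beta cells. Cre driven by the rat insulin promoter switched on tdTomato in beta cells, and a transgene with eGFP under the *Nnat* promoter then divided the beta cells. There were 3 libraries of non-beta cells, 4 labelled NNAT-positive beta cells and 4 labelled NNAT-negative beta cells. The replicate number stands for the mouse, and no library of non-beta cells was given for mouse 4. RNA was selected for poly(A) tails, and total counts lay between 30420352 and 43238376 per library.

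The sort labels were checked first. In 4 of 4 mice, the labelled NNAT-positive library had less *Nnat* than its labelled NNAT-negative partner, at 46.0 to 101 CPM (the read count over the library total in megareads, with TMM scaling of the total) against 66.5 to 153 CPM, which goes against those labels. The edgeR difference was −0.62 on the log2 scale (SE 0.17, adjusted *p* = 0.444), and both fractions are therefore called by their labels only. A supplementary table of the study heads its beta columns the other way round, and under those headings each difference between the beta fractions would change sign. The 7 beta cell markers summed to 278000 to 424000 CPM in the beta libraries of mice 1 to 3, to 178000 to 180000 CPM in those of mouse 4 and to 10400 to 25700 CPM in the non-beta libraries. Alpha, delta and PP cell markers summed to 128000 to 183000 CPM in the non-beta libraries and to at most 5910 CPM in any beta library.

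Long noncoding RNAs are transcribed by RNA polymerase II, and many are spliced and tailed like mRNAs, but part of them stay in the nucleus. *Malat1* lies in nuclear speckles, the stores of splicing factors, and *Neat1* is the scaffold around which paraspeckles form. *Firre* is an X-linked RNA that stays at chromatin and binds the protein HNRNPU, and *Miat* collects in a nuclear domain of its own in neurons. *Gas5* and *Snhg11* are hosts of small nucleolar RNAs (snoRNAs), which are cut from their introns, and the spliced *Gas5* RNA leaves for the cytoplasm and is lost quickly when it is translated. No nuclear or cytoplasmic fraction was sequenced in these libraries, so the name nuclear rests on this background alone. The annotation (gencode M21, build GRCm38) types *Snhg11* as protein coding and the other 5 as noncoding.

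*Malat1* and *Neat1* are neighbours on the minus strand of chromosome 19, at chr19:5795690-5802672 and chr19:5824708-5845478, with 22035 bases between them. *Firre* covers 79578 bases at chrX:50555744-50635321 on the minus strand. *Miat* is at chr5:112213228-112229395 on the minus strand, *Snhg11* at chr2:158375638-158386145 and *Gas5* at chr1:161034422-161038539, both on the plus strand. *Malat1* shares 453 exonic bases with *Gm37376*, and *Miat* 2260 with *Gm26953*, on the opposite strand. *Gas5* lies across *Zbtb37*, which is read the other way, and no exonic base is common to both. The kit marks strand, but the counting column is not given in the sources used here, so reads of such partners cannot be told apart.

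The 3′ ends of these RNAs are what a poly(A) selection captures, so they are shown here from the gencode M21 transcripts (build GRCm38), each from 5′ to 3′ on its own strand. *Malat1* and the long *Neat1* RNA are known to end at a cut by RNase P before a tRNA-like fold, where a triple helix with an A-rich tract takes the place of a tail added by poly(A) polymerase. The first line is the *Malat1* region at chr19:5795928-5796099, with the A-rich tract in capitals, and the second the annotated end of the same transcript at chr19:5795690-5795749. The third is the annotated end of the long *Neat1* transcript at chr19:5824708-5824807, with its A-rich end in capitals. The fourth is the end of the short *Neat1* transcript at chr19:5842307-5842366. The last lines are the ends of *Firre* (chrX:50555744-50555803), *Miat* (chr5:112213230-112213289) and *Gas5* (chr1:161038480-161038539). Capitals elsewhere mark the poly(A) signal AATAAA or its variant ATTAAA.
Malat1 tract: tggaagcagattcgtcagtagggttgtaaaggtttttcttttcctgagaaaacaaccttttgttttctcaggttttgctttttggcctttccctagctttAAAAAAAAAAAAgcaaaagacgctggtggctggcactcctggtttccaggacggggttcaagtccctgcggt
Malat1 end: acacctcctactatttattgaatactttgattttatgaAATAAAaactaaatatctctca
Neat1 long end: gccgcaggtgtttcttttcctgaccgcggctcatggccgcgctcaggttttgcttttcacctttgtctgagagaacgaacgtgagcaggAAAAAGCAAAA
Neat1 short end: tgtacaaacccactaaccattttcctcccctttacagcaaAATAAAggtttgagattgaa
Firre end: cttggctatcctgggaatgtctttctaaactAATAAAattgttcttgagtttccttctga
Miat end: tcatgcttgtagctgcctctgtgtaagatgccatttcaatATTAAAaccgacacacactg
Gas5 end: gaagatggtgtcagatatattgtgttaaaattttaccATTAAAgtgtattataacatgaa

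The *Malat1* tract holds a run of 12 A, and a run of that length or longer is found on the transcript strand of 4.28% of the 134529 annotated transcripts of at least 200 bases. AATAAA lies within the last 40 bases of 27.1% of those transcripts, ATTAAA of 8.39% and either of 34.2%. The annotated transcripts shown for *Malat1* and *Firre*, the short *Neat1* transcript and a transcript of *Snhg11* hold AATAAA there, those of *Miat* and *Gas5* hold ATTAAA, and neither set of letters is in that window of the long *Neat1* transcript. The *Malat1* transcript and the long *Neat1* transcript have 1 exon each, over 6983 and 20771 bases, whereas the *Gas5* transcript joins 8 exons into 346 bases and that of *Firre* joins 7 into 1145 bases.

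*Malat1* had the most reads of the noncoding members in the beta libraries of mouse 4. In mice 1, 2 and 3 its level was 71.4, 109 and 80.7 CPM in non-beta cells, 87.9, 48.0 and 37.3 CPM in the labelled NNAT-positive libraries and 78.4, 45.0 and 57.2 CPM in those labelled NNAT-negative. In mouse 4 it was 1990 CPM in the library labelled NNAT-positive and 1590 CPM in that labelled NNAT-negative, from 86895 and 58265 reads. Both libraries of mouse 4 lay above the other 9, which overlapped between the fractions.

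*Neat1* was also highest in both beta libraries of mouse 4, and lowest in the non-beta libraries. Its level in mice 1, 2 and 3 was 10.4, 13.9 and 10.4 CPM in non-beta cells, 17.3, 20.1 and 17.0 CPM in the labelled NNAT-positive libraries and 18.2, 15.2 and 20.6 CPM in those labelled NNAT-negative. Mouse 4 gave 389 and 330 CPM in the labelled NNAT-positive libraries and NNAT-negative. The 6 beta libraries of mice 1 to 3 lay above the 3 non-beta libraries without overlap, and both libraries of mouse 4 lay far above these.

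*Firre* was a rare RNA outside mouse 4. It measured 1.71, 6.44 and 2.12 CPM in mice 1, 2 and 3 for non-beta cells, then 2.89, 4.46 and 2.7 CPM in the labelled NNAT-positive libraries and 1.91, 1.61 and 2.36 CPM in those labelled NNAT-negative. In mouse 4 it was at 188 and 178 CPM. The non-beta library of mouse 2 was the highest of the 9 libraries of mice 1 to 3, and the fractions overlapped.

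*Snhg11*, a snoRNA host best known from neurons, was low in mice 1 to 3, with 0 to 75 reads per library. Non-beta cells gave 1.32, 0.53 and 1.34 CPM, the libraries labelled NNAT-positive 0.674, 1.80 and 0.55 CPM, and those labelled NNAT-negative 0, 0 and 1.03 CPM. In mouse 4 it was at 48.5 and 35.8 CPM, from 2123 and 1308 reads. *Miat* had 12 reads in the non-beta library of mouse 1, 5 and 1 reads in the beta libraries of mouse 4 and 0 in the other 8 libraries, where a count of 0 allows a level of up to 0.072 to 0.102 CPM (3 counts, counting error only). No difference of *Miat* was detectable at this depth.

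*Gas5* differed from these in both its order and its spread. Its level was 97.2, 100 and 111 CPM in mice 1, 2 and 3 for non-beta cells, then 46.7, 38.1 and 42.4 CPM in the labelled NNAT-positive libraries and 46.0, 40.2 and 44.1 CPM in those labelled NNAT-negative. Mouse 4 gave 73.1 and 82.2 CPM, above the other beta libraries and below each non-beta library. The panels of log2 CPM by library show these patterns side by side.

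**Figure D1:**
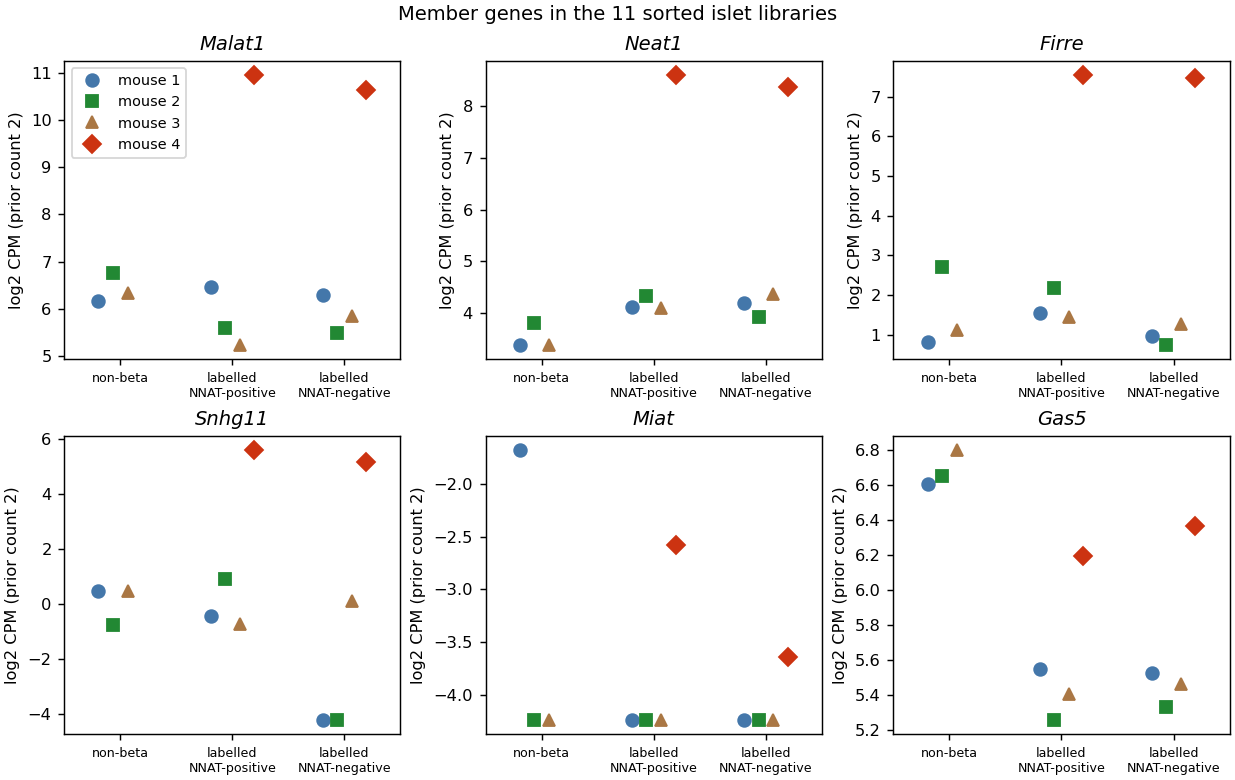
Level of each member (vertical axis, log2 CPM with a prior count of 2, scaled per panel) in the 3 sorted fractions (horizontal axis). Each point is a library and its shape and colour give the mouse. Both beta libraries of mouse 4 lie above all others for *Malat1*, *Neat1*, *Firre* and *Snhg11*, while for *Gas5* they lie between the other beta libraries and the non-beta libraries, and *Miat* rests on 12 reads or fewer.

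Levels were compared between genes only per kilobase of annotated exon. In the beta libraries of mice 1 to 3, *Gas5* (10.1 to 12.4 CPM per kb) and *Malat1* (5.35 to 12.6 CPM per kb) overlapped at the top, *Neat1* followed at 0.733 to 0.994 CPM per kb, and *Firre* (0.196 to 0.541 CPM per kb) and *Snhg11* (0 to 0.211 CPM per kb) overlapped below it. In non-beta cells *Gas5*, at 25.9 to 29.6 CPM per kb, lay above *Malat1*, at 10.2 to 15.6 CPM per kb, in 3 of 3 libraries. In mouse 4 *Malat1* was highest on this scale at 228 to 284 CPM per kb. *Firre* (21.5 to 22.8), *Gas5* (19.4 to 21.9) and *Neat1* (15.9 to 18.7) followed. The *Neat1* value divides by the 20771 bases of the long transcript, so it understates the level where only the short one is made. The *Gas5* and *Firre* values divide by 3760 and 8247 bases, which pool the exons of all annotated transcripts. The transcripts shown above have 346 and 1145 bases, and dividing by those would raise both values. The order of the genes therefore depends on this divisor.

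The mouse 4 contrast, which chose the members, was described within each beta fraction as log2 CPM in mouse 4 minus the mean of mice 1 to 3. In the labelled NNAT-positive and then the labelled NNAT-negative libraries, the difference was 5.20 and 4.76 for *Malat1*, 4.43 and 4.20 for *Neat1*, 5.82 and 6.48 for *Firre*, and 5.70 and 7.95 for *Snhg11*, whose second value depends on the prior count because 2 of 3 libraries were at 0. It was 0.79 and 0.92 for *Gas5*. Thus 4 of the 5 members tested were more than 2-fold higher in both fractions, against 9.11% of all tested genes, and 1.15% were more than 2-fold lower. Both libraries of mouse 4 lay above all 6 of mice 1 to 3 for 5 of 5 members, against 18.7% of all tested genes. By the smaller of both differences *Firre* ranked 6, *Snhg11* 8, *Malat1* 32, *Neat1* 74 and *Gas5* 2099 among the 17424 genes. The rule set no threshold, and *Gas5* is the member just short of a 2-fold difference.

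**Figure D2:**
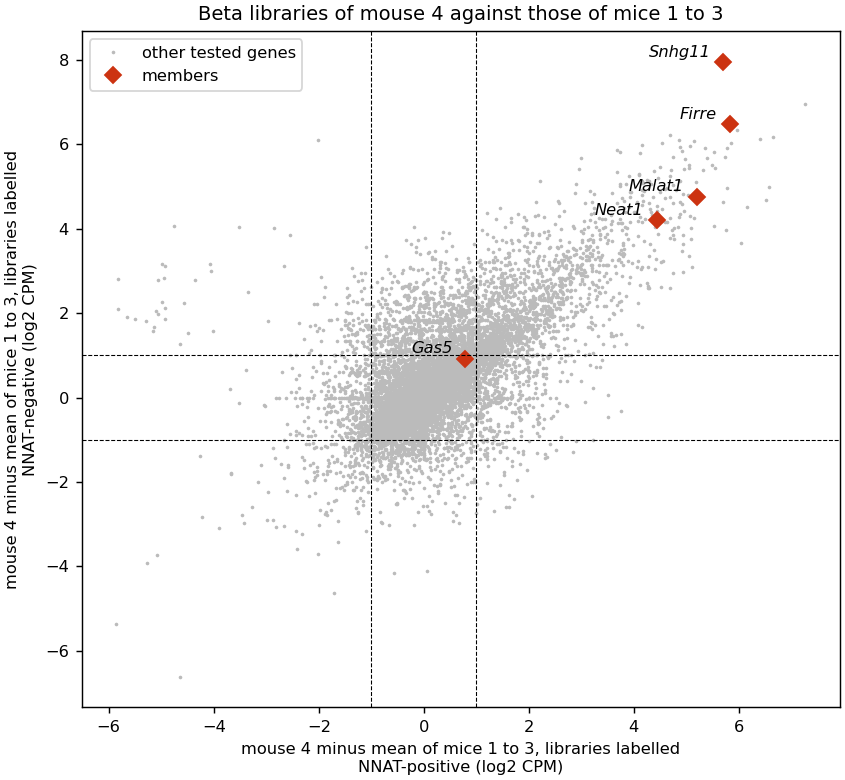
Log2 CPM in mouse 4 minus the mean of mice 1 to 3, in the libraries labelled NNAT-positive (horizontal axis) and NNAT-negative (vertical axis). Grey points are the other tested genes, red diamonds the 5 members tested, and dashed lines mark 2-fold. *Malat1*, *Neat1*, *Firre* and *Snhg11* lie at the upper right end of the cloud and *Gas5* lies inside the 2-fold lines.

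The members kept different proportions to each other. *Malat1* and *Neat1* together took 0.217% to 0.266% of all counts in the beta libraries of mouse 4 and 0.00507% to 0.0123% in the other 9 libraries. There were 4.82 to 5.10 reads of *Malat1* per read of *Neat1* in mouse 4, at the top of the range of 2.19 to 5.09 in the beta libraries of mice 1 to 3 and below the 6.85 to 7.81 of non-beta cells. Reads of *Malat1* per read of *Gas5* were 19.4 to 27.1 in mouse 4, against 0.881 to 1.88 in the other beta libraries and 0.725 to 1.08 in non-beta cells. The ratio between both chromosome 19 neighbours thus stayed near that of the other beta libraries, while the ratio of each to *Gas5* did not.

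Genes of related roles were then described in the same contrast, from lists that were chosen with results of these data known. Of 11 tested nuclear-retained lncRNAs outside the members, 7 were more than 2-fold higher in both beta fractions of mouse 4. The share over all tested genes was 9.11% (list medians 2.59 and 2.65 on the log2 scale, medians of all genes 0 and 0.03). *Meg3*, a maternally expressed imprinted RNA, was at 1050 to 1210 CPM in mouse 4 and at 18.6 to 40.5 CPM in the other beta libraries. *Rian* and *Mirg*, from the same imprinted cluster, were at 670 to 695 and 23.1 to 25.2 CPM, against 81.4 to 125 and 0.365 to 1.61 CPM. *Kcnq1ot1*, the antisense RNA of the *Kcnq1* imprinted domain, was at 35.5 to 40.5 CPM against 2.74 to 5.84 CPM. *Ftx* of the X inactivation centre was at 45.1 to 51.7 CPM against 6.88 to 8.38 CPM, and *Airn* and *Snhg14* were the other two. Other RNAs of the list did not stand high. *Tug1* was at 95.3 to 99.9 CPM against 91.4 to 118 CPM and *Peg13* at 193 to 198 CPM against 209 to 246 CPM. *Jpx* and *Pvt1* overlapped with mice 1 to 3 as well, and *Xist*, *Tsix* and *Rmst* did not pass the filter.

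Among 17 tested snoRNA host genes, 9 were more than 2-fold higher in both beta fractions of mouse 4, against 9.11% of all tested genes. The hosts differed widely (medians 1.41 and 1.34). *Snhg20* was at 13.8 to 15.6 CPM against 0.444 to 1.19 CPM, and *Snhg17* at 16.8 to 18.7 CPM against 0.205 to 2.00 CPM. *Snhg8* (12.2 to 16.5 CPM against 11.5 to 13.6 CPM) and *Snhg4* overlapped with mice 1 to 3, and *Snhg18* was lower, at 4.98 to 7.97 CPM against 9.74 to 16.4 CPM. *Gas5*, at 0.79 and 0.92, lay below the medians of these host genes in both fractions.

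The mRNAs of proteins that build the nuclear bodies were also described. Over all tested genes, 9.11% were more than 2-fold higher in both fractions and 18.7% lay above all 6 libraries of mice 1 to 3. Of 14 nuclear speckle protein mRNAs, 9 were more than 2-fold higher in both fractions and 13 lay above all 6 libraries (medians 1.21 and 1.27). The splicing factor mRNAs *Srsf5* and *Srsf7* differed most in that list, at 467 to 470 and 266 to 275 CPM against 53.5 to 85.9 and 39.4 to 50.5 CPM. Of 15 paraspeckle protein mRNAs only *Hnrnph1* and *Tardbp* were more than 2-fold higher, while 12 lay above mice 1 to 3 (medians 0.58 and 0.67). *Nono*, which binds *Neat1* in the paraspeckle core, was at 140 to 144 CPM and inside the range of 111 to 152 CPM. *Hnrnpu*, whose protein binds *Firre*, was at 443 to 487 CPM against 296 to 364 CPM, and *Celf3* and *Sf1*, whose proteins bind *Miat*, lay above mice 1 to 3 by less than 2-fold. A further *Miat* partner, *Qki*, stood in the count table as *Qk* and so was missed in the counts of this list. *Qk* was more than 2-fold higher in both fractions, by 1.06 and 1.01 on the log2 scale.

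The 5 listed mRNAs known to keep detained introns in the nucleus were all more than 2-fold higher in both fractions of mouse 4. Over all tested genes the share was 9.11% (list medians 1.90 and 2.07). *Clk1* and *Clk4*, kinases of splicing factors, were at 224 to 235 and 122 to 134 CPM against 20.2 to 29.6 and 14.8 to 22.7 CPM, and *Ogt*, the O-GlcNAc transferase, was at 212 to 219 CPM against 53.5 to 89.1 CPM. Of 12 housekeeping mRNAs 0 were more than 2-fold higher, *B2m* was more than 2-fold lower and 6 lay below all 6 libraries of mice 1 to 3 (medians −0.24 and −0.24). Among all 17424 tested genes, 2756 lay below those 6 libraries. *Eef1a1*, the elongation factor, was at 1610 to 1650 CPM against 2320 to 2710 CPM, and *Gapdh* overlapped at 71.7 to 72.8 CPM against 69.9 to 81.7 CPM. Gene counts do not separate spliced from unspliced reads, so introns were not measured.

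**Figure D3:**
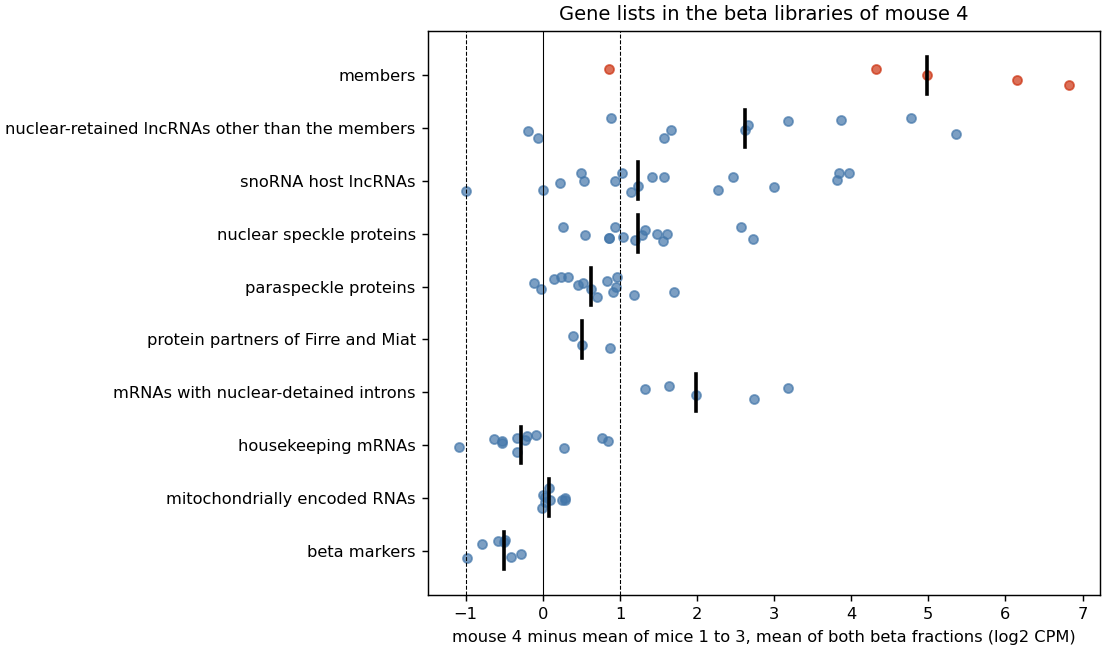
Log2 CPM in mouse 4 minus the mean of mice 1 to 3, averaged over both beta fractions (horizontal axis), for the tested genes of each list (rows). Points are genes, black bars are list medians, and dashed lines mark 2-fold. Members and other nuclear-retained lncRNAs reach furthest to the right, followed by snoRNA hosts and then mRNAs with detained introns. Mitochondrial RNAs sit near 0, and housekeeping mRNAs and beta markers mostly lie to the left of it.

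Other measures that moved with mouse 4 were taken beside these values. Beta markers were lower, with 6 of 7 below all 6 libraries of mice 1 to 3 (medians −0.51 and −0.54), against 2756 of all 17424 tested genes. Genes with at least 10 reads numbered 15215 to 15776 against 13909 to 14859. The 9 tested mitochondrial RNAs summed to 18700 to 18800 CPM, inside the range of 7700 to 26800 CPM in the other beta libraries, and none was more than 2-fold higher. RNAs without a poly(A) tail (3 of 17 tested, with 10 listed at 0 reads in all libraries) summed to 1.78 to 2.24 CPM, inside 1.19 to 7.47 CPM. Summed levels in mouse 4 against the other beta libraries were 1940 to 4160 against 2010 to 5910 CPM for alpha, delta and PP markers, 6.47 to 366 against 36.7 to 1490 CPM for acinar markers and 228 to 229 against 214 to 275 CPM for ductal markers. *Krt7*, at 224 to 225 against 195 to 257 CPM, made up most of the ductal sum. The ductal markers *Spp1* (2.43 to 3.75 against 15.3 to 30.5 CPM) and *Krt19* (0.64 to 0.766 against 0.912 to 4.24 CPM) were below all 6 libraries of mice 1 to 3. Summed levels were 0.109 to 0.685 against 0.0913 to 5.06 CPM for endothelial, 2.57 to 3.29 against 0.137 to 16.4 CPM for leukocyte and 0.822 to 1.04 against 0.0609 to 4.44 CPM for stromal markers. The 5 neuronal and glial markers summed to 217 to 223 CPM, above the 139 to 197 CPM of the other beta libraries. Immediate early genes respond within minutes to stimuli and handling. Of 10 listed, 10 were more than 2-fold higher in both fractions of mouse 4, against 9.11% of all tested genes. Of 4 heat shock genes 4 were as well. The list was made after some of these values had been seen. The log2 differences in the labelled NNAT-positive and then the labelled NNAT-negative libraries were 4.33 and 4.39 for *Fosb*, 3.36 and 3.75 for *Jun* and 3.57 and 3.98 for the chaperone gene *Hspa1b*. The study's methods give an RNA integrity number above 9 for the sorted cells, with no value per library. The labels give no date or preparation batch, and the part of these genes, RNA quality, sorting or library preparation in the mouse 4 values was not tested. Each mouse had its own islet preparation, so the mouse and its preparation cannot be told apart. With no non-beta library from mouse 4, its non-beta cells could not be described.

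Beta cells were compared with non-beta cells in the edgeR fit with the mouse as a block, so the difference comes from mice 1 to 3. A call needed both an adjusted *p* under 0.01 and a fold change over 2, which held for 6.22% of tested genes as higher and 18.9% as lower in beta cells. Among the 5 members *Gas5* was called, lower by 1.27 on the log2 scale. In bulk samples, fewer cells of a type with a given RNA and less of that RNA per cell cannot be told apart.

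*Gas5* fell in beta cells, from 103 ± 7.36 CPM (SD, n = 3 mice) in non-beta cells to 42.9 ± 3.33 CPM (SD, n = 6 libraries of 3 mice), and the groups did not overlap. The log2 fold change was −1.27 (SE 0.08, 95% CI −1.44 to −1.09, edgeR adjusted *p* = 4.88e-07), and within mice 1, 2 and 3 it was −1.07, −1.36 and −1.36. Without the mouse block, where mouse 4 counts as a beta replicate, it was −0.998 (adjusted *p* = 0.00298), just short of 2-fold.

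*Neat1* was higher in beta cells at 18.1 ± 2.02 CPM (SD, n = 6 libraries of 3 mice) against 11.6 ± 2.04 CPM (SD, n = 3). The log2 fold change of 0.65 (SE 0.13, 95% CI 0.35 to 0.95, edgeR adjusted *p* = 0.00207) passed the threshold for *p* and not that for size. With total counts in place of TMM the adjusted *p* was 0.0166. *Neat1* was higher in 3 of 3 mice, by 0.77, 0.33 and 0.85. *Malat1* lay the other way, at 59 ± 20.0 CPM (SD, n = 6 libraries of 3 mice) against 86.9 ± 19.4 CPM (SD, n = 3), with a log2 fold change of −0.63 (SE 0.23, 95% CI −1.15 to −0.12, edgeR adjusted *p* = 0.041) that did not pass. It was 0.22, −1.22 and −0.80 within mice 1, 2 and 3, and without mouse 1 the fitted value was −1.005 (adjusted *p* = 0.00293), which would be called. These neighbouring genes on chromosome 19 thus had estimates of opposite sign with intervals that do not overlap.

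*Firre* did not pass, with a log2 fold change of −0.25 (SE 0.31, 95% CI −0.94 to 0.43, edgeR adjusted *p* = 0.528). It was 0.45, −1.24 and 0.24 within mice 1, 2 and 3, and without mouse 2, whose non-beta library was high, the estimate was 0.34 (adjusted *p* = 0.103). *Snhg11* did not pass either, at −0.84 (SE 0.81, 95% CI −2.64 to 0.96, edgeR adjusted *p* = 0.42), an interval that still allows a more than 2-fold difference in the lower direction. Fitted without the block, *Malat1*, *Firre* and *Snhg11* changed sign to 2.49, 3.81 and 3.35 (adjusted *p* = 0.212, 0.15 and 0.221), since mouse 4 then enters the beta mean. *Neat1* moved to 3.16 in the same fit and no longer passed (adjusted *p* = 0.088).

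**Figure D4:**
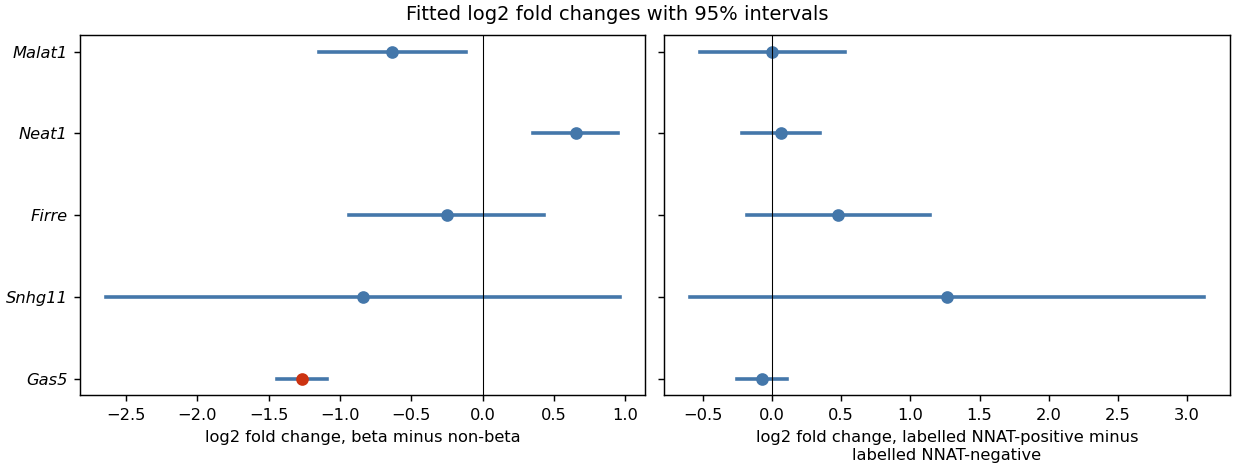
Fitted log2 fold changes (horizontal axes) of the 5 members tested, for beta against non-beta cells (left) and libraries labelled NNAT-positive against NNAT-negative (right), from edgeR with the mouse as a block. Points are estimates, lines 95% intervals, and red marks a called gene. *Gas5* is called in the left panel, the *Neat1* and *Malat1* intervals lie on either side of 0 there, and all 5 intervals in the right panel include 0.

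The other lists were read in the same comparison. Of 17 snoRNA host genes 6 were lower in beta cells and 0 higher (list median −1.05, median of all tested genes −0.10), against 18.9% of all genes lower. *Snhg8* fell from 28.6 to 39.6 CPM in non-beta cells to 11.5 to 13.6 CPM in the beta libraries of mice 1 to 3 (log2 fold change −1.49, SE 0.13), and *Zfas1* from 21.2 to 30.8 CPM to 5.05 to 7.72 CPM (−1.86, SE 0.19). *Snhg1*, *Snhg12*, *Snhg16* and *Dancr* were the other called hosts. Without the mouse block 2 hosts were called lower. Among 11 nuclear-retained lncRNAs *Pvt1* was lower, at 0 to 0.262 CPM against 0.887 to 1.54 CPM, and 0 were higher (median 0.09). The *Pvt1* call was lost when any of the 4 mice was left out. *Peg13*, an imprinted RNA, was at 209 to 246 CPM in beta cells and 112 to 118 CPM in non-beta cells, a log2 fold change of 0.95 (SE 0.07) that stayed under 2-fold.

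Of 15 paraspeckle protein mRNAs *Hnrnpa1* was lower (median −0.17), and of 14 nuclear speckle protein mRNAs 0 were called in either direction by edgeR or DESeq2, with 6 at an unadjusted *p* below 0.05 (median −0.09). Of the 5 mRNAs with detained introns *Mat2a*, which makes S-adenosylmethionine synthetase, was lower at 18.5 to 34.0 CPM against 41.0 to 65.9 CPM (median −0.14). Of 3 tested partners of *Firre* and *Miat* 0 were called by edgeR or DESeq2, with 2 at an unadjusted *p* below 0.05 (median −0.17). Of 12 housekeeping mRNAs 3 were lower, *Actb*, *Tubb5* and *B2m* (median −0.48), and of 9 mitochondrial RNAs 1 was higher (median 0.54), which became 0 without mouse 1 or mouse 3 and 6 without mouse 2. The *Hnrnpa1* and *Mat2a* calls were lost without mouse 1 and without the block. Of 3 tested RNAs without a poly(A) tail 0 were called by edgeR or DESeq2, with 1 at an unadjusted *p* below 0.05.

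The libraries labelled NNAT-positive were compared with those labelled NNAT-negative across the 4 mice. Of the 5 members 0 were called by edgeR, 0 by DESeq2 and 0 had an unadjusted *p* below 0.05, where edgeR called 8 of all tested genes (0.0459%). The log2 difference of *Malat1* was 0.0026 (SE 0.23, 95% CI −0.52 to 0.52, edgeR adjusted *p* = 1), and within mice 1 to 4 it was 0.16, 0.09, −0.62 and 0.32. *Neat1* gave 0.06 (SE 0.13, 95% CI −0.22 to 0.35, edgeR adjusted *p* = 0.985) and was higher in 2 of 4 mice. *Gas5* gave −0.07 (SE 0.08, 95% CI −0.25 to 0.11, edgeR adjusted *p* = 0.957) and was higher in 1 of 4 mice. The intervals of these 3 genes leave out a 2-fold difference in either direction.

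The labelled NNAT-positive library had more *Firre* in 4 of 4 mice, by 0.59, 1.44, 0.19 and 0.08, and its fitted difference of 0.48 (SE 0.30, 95% CI −0.18 to 1.14, edgeR adjusted *p* = 0.897) did not pass. *Snhg11* was higher in 3 of 4 mice at 1.26 (SE 0.83, 95% CI −0.59 to 3.12, edgeR adjusted *p* = 0.902), where 2 libraries labelled NNAT-negative had 0 reads. For both, a 2-fold difference lay inside the interval. Alpha, delta and PP cell markers summed to 4160 to 5910 CPM in the labelled NNAT-positive libraries and to 1940 to 2830 CPM in the labelled NNAT-negative ones, and 2 of 7 were called higher in the former. Their part in the member values was not tested. No gene of the lncRNA, snoRNA host, speckle, paraspeckle, partner, detained intron, housekeeping, mitochondrial or tailless lists was called here by edgeR or DESeq2, 1 speckle protein and 1 snoRNA host gene had an unadjusted *p* below 0.05, and the smallest adjusted *p* among them was 0.681, in the snoRNA hosts.

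The genes most like each member by Pearson's *r* of log2 CPM over the 11 libraries were named next, as a description in which the points share mice and mouse 4 sets much of the range. *Malat1* ran closest to *Ddx5*, an RNA helicase (*r* = 0.985), *Hspe1*, a mitochondrial chaperonin (0.983), and *Ccnl2*, a cyclin of nuclear speckles (0.982). Over the 6 beta libraries of mice 1 to 3 the same pairs gave 0.667, 0.776 and 0.448. *Neat1* ran closest to *Pnisr*, *Srrm2*, a speckle scaffold protein, and *Ints6l* (0.992, 0.991 and 0.991), which gave 0.522, 0.523 and 0.634 without mouse 4 and the non-beta cells.

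*Firre* ran closest to the splicing factors *Srek1* and *Srsf6* and to the chaperone *Dnaja1* (0.992, 0.990 and 0.989, and 0.697, 0.659 and 0.668 over the 6 beta libraries). *Snhg11* ran closest to *D7Bwg0826e*, *Dcp1b*, a decapping factor, and *Atp9b* (0.971, 0.962 and 0.956), and these values held at 0.973, 0.934 and 0.935 over the 6 beta libraries, where 2 libraries with 0 reads of *Snhg11* set the range. *Gas5* ran closest to *Lin7a*, *Arl4d* and *Rnf213* (0.983, 0.977 and 0.976), which gave −0.213, −0.216 and 0.555 over the 6 beta libraries.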

How the data were processed

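Raw counts per gene were deposited by the authors for 11 libraries without normalisation. Per the labels and methods, 20 ng of RNA entered poly(A) selection and a directional library kit, and reads were aligned with STAR 2.7.1a to mm10 and counted on gencode genes. The authors' own comparisons with DESeq2 1.32.0 were not used. No pair of libraries held identical counts, and 202 genes with an identifier but no symbol (0.234% of counts) were kept.

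Counts were analysed in R 4.3.3 with edgeR 4.0.16 (quasi-likelihood test, TMM, filterByExpr by group with a minimum count of 10), in 1 fit of all libraries with the mouse as a block. The labels number the replicates and the study gives each as a mouse. Deviations of both beta libraries of a mouse from their fraction means correlated at 0.182, 0.199, 0.219 and 0.658 (different mice −0.103 on average). Taking deviations from a mean that includes mouse 4 lowers the average of different mice and can raise the values of mice 1 to 3. These correlations therefore do not test the pairing. Benjamini-Hochberg adjustment covered all 17424 genes. Dividing each log2 change by √*F* gave its SE, and log2 CPM used a prior count of 2. The study gives separate islet preparations of individual mice.

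The members and lists were chosen with earlier results of these data known. Genes named were the members, fixed lists, the 3 genes most like each member and the 10 genes with the largest mouse 4 difference in each direction. Annotation and sequences came from gencode M21 (55141 identifiers matched). The tests were checked on simulated counts. Alternatives were RLE size factors, total counts, no filter, DESeq2 1.42.0, no block, beta libraries only, the median of mice 1 to 3 and leaving out each mouse. Fits without the block on mice 1 to 3 only were chosen after seeing the data.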

Additional observations from a re-analysis of the deposited data

Results flagged for a closer look

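In each beta fraction of 4 libraries, the highest library was set against the others by the gap to its nearest neighbour over the whole range (Dixon's ratio, against its 95% critical value), and chance passes about 1 in 20 such groups. Mouse 4 was the highest library wherever the limit was passed. In the libraries labelled NNAT-positive the ratio was 0.974 for *Malat1*, 0.992 for *Neat1*, 0.99 for *Firre*, 0.974 for *Snhg11* and 1 for *Miat*. In those labelled NNAT-negative it was 0.978 for *Malat1*, 0.983 for *Neat1*, 0.996 for *Firre*, 0.971 for *Snhg11*, 1 for *Miat* and 0.862 for *Gas5*. The *Miat* ratios rest on 5 reads and 1 read in mouse 4 against 0 in the other mice, where any read gives a ratio of 1. The members were chosen with this pattern known, so the rate of 1 in 20 does not apply to them. The ratios only describe the pattern again. The libraries of 1 mouse share their sort and preparation, and the part of these in the values was not tested.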

How the results depend on the processing

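Scaling by total counts moved the median mouse 4 difference of all genes from 0 and 0.03 to 0.19 and 0.31, and the members with it. *Neat1* then gave 4.66 and 4.49 (libraries labelled NNAT-positive and NNAT-negative), *Firre* 6.76 in the latter, and *Gas5* 1.03 and 1.21, past 2-fold in both, while 2157 genes were higher and 122 lower in mouse 4 instead of 1587 and 200. With RLE size factors these counts were 1609 and 198, and against the median of mice 1 to 3 they were 1589 and 239. In beta against non-beta cells, total counts moved the median of all genes from −0.10 to −0.27. Without the replicate block the log2 fold changes were 2.49 for *Malat1*, 3.81 for *Firre* and 3.35 for *Snhg11*, these of reversed sign, −0.998 for *Gas5* and 3.16 for *Neat1* (adjusted *p* = 0.088). Leaving out 1 mouse, *Firre* ranged from −0.55 to 0.34, positive without mouse 2. Members called lower numbered 0 without the replicate block and 1 to 2 without 1 mouse. Genes called lower were 2 instead of 1 under RLE, total counts and DESeq2 in both the nuclear-retained and the detained intron list, and 0 without the block. Leaving out 1 mouse, *Gas5* ranged from −1.36 to −1.21, *Neat1* from 0.55 to 0.79 (adjusted *p* = 0.00107 to 0.0222), and *Malat1* from −1.005 (called, without mouse 1) to −0.32.

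Between the labelled beta fractions, *Malat1* near 0 changed sign to −0.034 with RLE, −0.031 with no filter, −0.036 with DESeq2, −0.040 in beta libraries alone, −0.076, −0.011 and −0.14 without mouse 1, 2 and 4 (0.20 without mouse 3), and −0.10 without the block in mice 1 to 3. *Neat1* changed to −0.027 and −0.037 without mouse 2 and 4 (0.18 without mouse 3), and to −0.028 without the block in mice 1 to 3. The 8 genes called higher became 25 with no filter, 80 with DESeq2, 1 without the replicate block, 0 to 5 without 1 mouse and 0 without the block in mice 1 to 3. The 0 called lower (130 at an unadjusted *p* below 0.05 in edgeR) became 1 with no filter and 6 with DESeq2. Of 504 values for single genes and lists, 464 kept direction and call, and the cause of the others was not tested. Depth limits *Miat* and *Snhg11*.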

Other observations

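Annotated gene types differed in the share of tested genes that were more than 2-fold higher in both beta fractions of mouse 4. The share was 70.5% of 44 sense intronic genes, which lie inside introns of other genes, and 50.7% of 361 TEC genes, a type for loci still without experimental evidence. It was 23.6% of 301 processed transcripts, 21.8% of 523 lincRNAs, 16.4% of 548 antisense genes and 6.7% of 14639 protein coding genes. Among the coding genes it was 7.61% of 8171 with an annotated retained-intron transcript and 5.55% of 6468 without one. The filter on low counts drew on all libraries, with both of mouse 4 included, and the types were not matched for level. The shares therefore describe the tested genes only, and the part of this selection in them was not tested.

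The 10 genes with the largest such difference were *Col11a2*, a collagen chain, *Gm43858*, *Gm36936*, *Gm42664*, *Rgs11*, a regulator of G protein signalling, *Firre*, *Gm42979*, *Snhg11*, *Lgals4*, a galectin, and *Gm43609*. *Rgs11* was at 119 to 139 CPM in mouse 4 and at 1.07 to 2.71 CPM in the other beta libraries, and *Col11a2* at 13.4 to 14.5 CPM against at most 0.139 CPM. Of these 10 genes 4 were of the TEC type and 1 sense intronic. The 10 genes furthest in the other direction were *Gm10263*, *Rps18-ps6*, *BC023719*, *H2-Bl*, *Gm6278*, *Gm35082*, *Gm8983*, *Hmga1b*, *Gm6728* and *Gm18736*. None of these exceeded 0.251 CPM in mouse 4, and several are processed pseudogenes, whose reads can be shared with a near-identical parent gene. In the beta libraries of mice 1 to 3, *BC023719*, *H2-Bl*, *Gm35082*, *Hmga1b* and *Gm18736* also reached down to their levels in mouse 4. *BC023719*, for example, was at 0 to 6.38 CPM there and at 0 to 0.0273 CPM in mouse 4. The others of the 10 lay above mouse 4 in each of those libraries.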
